A study of Mus musculus with 8 samples.

Results

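Hypoxia-inducible factors (HIFs) are transcription factors made of an oxygen-sensitive alpha subunit and a stable beta subunit. When oxygen is low, the alpha subunit escapes hydroxylation and degradation, enters the nucleus, and the pair binds short DNA elements of target genes. Many of these targets encode enzymes of glycolysis, while others act on blood vessels, mitochondria, growth control, collagen, chromatin and pH. The 10 genes described here belong to that second class and were taken by name: Vegfa, Adm, Angptl4, Bnip3, Ddit4, Ndrg1, Ankrd37, P4ha1, Kdm3a and Car9. All 10 were found among the 51789 genes of the count table, and all 10 passed the filter on low counts, which left 17858 genes for testing.

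RNA was sequenced from whole mammary glands of female C57BL/6 mice 6 weeks after injection of small extracellular vesicles (sEVs) shed by AT3 cells (a mouse mammary adenocarcinoma line that metastasizes). The vesicles had been released in hypoxia (sEVHYP, n = 2 libraries) or in normoxia (sEVNORM, n = 3), and control preparations came from non-conditioned medium (sEVCTRL, n = 3). The age of the mice was not given in the sources used here, and each group received sEVs of 1 cell line or none. The study asked whether vesicles of hypoxic tumor cells change the normal gland and whether HIF1-alpha inside them takes part. Total counts were 18194996 to 24622569 per library, and values are given as CPM, which are counts scaled by TMM to a common library size. The 3 groups were fitted in one model with the quasi-likelihood F-test of edgeR (two-sided), and a gene is called changed at the study's threshold, an unadjusted P under 0.05. No gene passed 0.05 in that test after Benjamini-Hochberg adjustment over all genes tested (0 in each comparison), and the adjusted P was 1 for all 10 members in all 3 comparisons, so each call below rests on the unadjusted P. At that threshold the calls were 706, 438 and 290 genes for sEVHYP against sEVNORM, sEVHYP against sEVCTRL and sEVNORM against sEVCTRL. DESeq2 on only the groups compared gave 1195, 387 and 303 genes unadjusted, and 83, 14 and 3 adjusted.

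The tissue make-up of the glands differed. Luminal epithelial markers (summed 1020 to 2230 CPM) and white adipocyte markers (6260 to 11800 CPM) were present in every library. The 12 skeletal muscle markers summed to 5870 and 16000 CPM with sEVHYP, 53.1 to 3710 CPM with sEVNORM and 830 to 11200 CPM with sEVCTRL. Brown adipocyte markers summed to 49.9 and 85.1 CPM with sEVHYP, against 28.8 to 40.4 CPM with sEVNORM and 29.0 to 47.4 CPM with sEVCTRL. Cox8b held the largest part of the sEVHYP sums, at 16.9 and 27 CPM. Ucp1 was at 0.321 and 6.16 CPM with sEVHYP, 0.0402 to 2.04 CPM with sEVNORM and 0 to 0.203 CPM with sEVCTRL. Ucp1, Dio2 and Ppargc1a overlapped between sEVHYP and sEVNORM, while Cidea, Cox7a1 and Cox8b did not, as for 22.8% of all genes tested. Lymphocyte markers ranged from 483 CPM in sEVHYP replicate 2 to 1440 CPM in sEVNORM replicate 2. In whole-gland RNA, fewer cells of a type and less RNA per cell cannot be told apart.

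Among the 10 genes, Ddit4 differed between glands exposed to sEVHYP and sEVNORM, and the other 9 did not pass the test. Ddit4 encodes REDD1, which restrains the growth-promoting kinase complex mTORC1 and is induced by hypoxia, energy stress and glucocorticoids. It was measured at 21.4 and 24.3 CPM with sEVHYP, at 8.29, 8.64 and 13.0 CPM with sEVNORM, and at 12.2, 13.6 and 23.6 CPM with sEVCTRL. Both sEVHYP glands were above all 3 sEVNORM glands, while 1 sEVCTRL gland, replicate 2, lay between the sEVHYP pair and the remaining controls lay near the top of the sEVNORM range. The means were 22.8 ± 2.07 CPM (SD, n = 2), 9.96 ± 2.6 CPM (SD, n = 3) and 16.5 ± 6.24 CPM (SD, n = 3).

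The log2 fold change of Ddit4 between sEVHYP and sEVNORM was 1.196 (SE 0.31), a fold of 2.29 with a 95% confidence interval of 1.40 to 3.74 (edgeR adjusted P = 1). DESeq2 on only these groups gave a log2 fold change of 1.199 and an adjusted P of 0.0101. The adjusted P was 0.267 with DESeq2 on all 8 libraries and 0.81 with edgeR on only these groups, so it depended on the fit. The 1 member called compares with 3.95% of all genes tested, of which 2.25% were called higher and 1.7% lower. Leaving out any single library kept the call, with log2 fold changes of 1.08 to 1.43. With the skeletal muscle markers as a covariate the value was 0.92 and the call was kept, and with the brown adipocyte markers as a covariate it was 1.10 with an SE of 0.63 and the call was lost.

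Against sEVCTRL, Ddit4 did not pass the test with sEVHYP (log2 fold change 0.47, SE 0.31). Without sEVCTRL replicate 2, the gland with the highest control value, it did (0.83, SE 0.25). Between sEVNORM and sEVCTRL, Ddit4 was lower with sEVNORM (-0.73, SE 0.29, adjusted P = 1), although these groups overlapped, since sEVNORM replicate 3 at 13.0 CPM was above the lowest control. That call was lost without sEVCTRL replicate 2 (-0.37), without sEVNORM replicate 1 (-0.61) or without sEVNORM replicate 2 (-0.63). sEVCTRL replicate 2 also held 11200 CPM of skeletal muscle markers, the highest of the controls, and over all 8 libraries the log2 level of Ddit4 had a Pearson r of 0.68 with that marker list (exact permutation P = 0.0464, adjusted P = 0.173 over 60 relations, Spearman rho 0.57 with exact permutation P = 0.151). Without sEVNORM replicate 2 and sEVCTRL replicate 1, the libraries farthest from the median of the markers, r was 0.72, and after group means were removed it was 0.44. The part of muscle tissue in the Ddit4 differences was otherwise not tested.

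Ddit4 lies on chromosome 10 (GRCm38, 59949669 to 59951834, minus strand, ENSMUSG00000020108). HIFs bind a core of 5 bases, ACGTG or GCGTG, on either strand, and the region before the gene start holds 1 match of each. The stretch upstream of the annotated exons is shown because Ddit4 is the member that was called, with the core matches in capitals (RefSeq, GRCm38.p6, chr10:59951835-59952020, minus strand).
Ddit4: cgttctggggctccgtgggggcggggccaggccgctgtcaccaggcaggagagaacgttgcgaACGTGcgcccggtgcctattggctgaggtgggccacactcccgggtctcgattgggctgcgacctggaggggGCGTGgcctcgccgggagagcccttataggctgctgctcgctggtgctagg
Matches to the core lay 187 and 115 bases before the RefSeq start. Such matches are common, since 38.6% of 32851 RefSeq promoter windows of 250 bases held at least 1 and 16.7% at least 2, and a match is a description of letters, not a bound site.

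**Figure D1:**
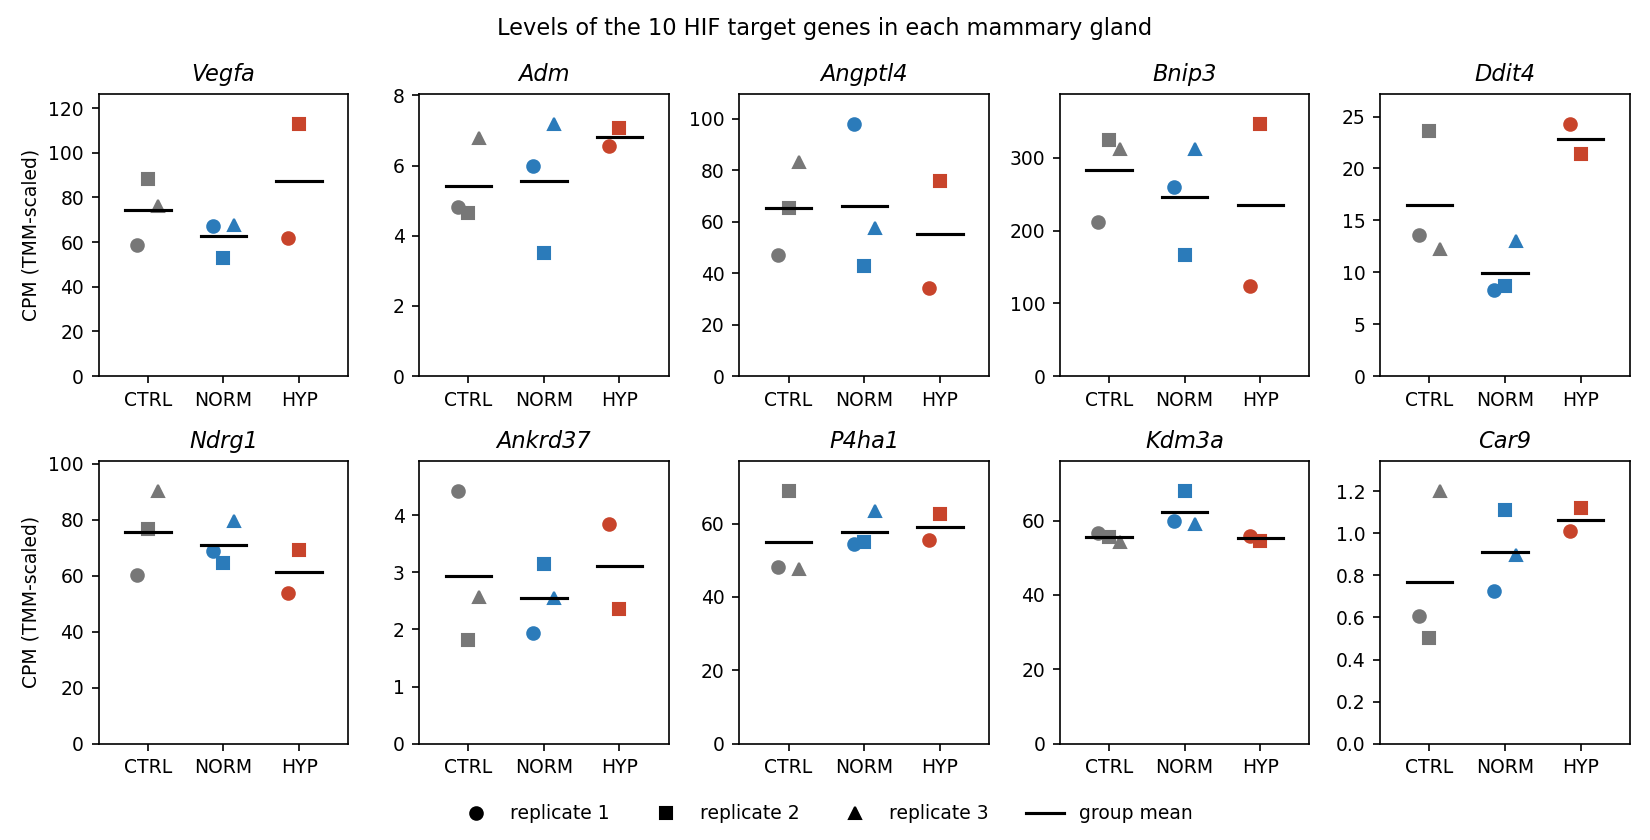
Level of each of the 10 genes in CPM (vertical axes from 0, a separate scale per gene) in the 3 sEVCTRL, 3 sEVNORM and 2 sEVHYP glands, with marker shapes for replicate numbers and lines for group means. Ddit4 is the gene whose sEVHYP glands (21.4 and 24.3 CPM) lie above all sEVNORM glands, while for Vegfa, Angptl4 and Bnip3 the sEVHYP pair is far apart.

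The secreted factors came next. Vegfa encodes the vascular endothelial growth factor A that drives the sprouting of blood vessels, and it was at 61.7 and 113 CPM with sEVHYP, 52.9, 67.1 and 67.7 CPM with sEVNORM, and 58.8, 76.0 and 88.5 CPM with sEVCTRL. The sEVHYP glands disagreed: replicate 2 had the highest value of all 8 libraries, and replicate 1 lay among the sEVNORM glands. The log2 fold change against sEVNORM was 0.48 (SE 0.27), a fold of 1.40 with a 95% interval of 0.916 to 2.13. It was 0.86 (SE 0.26), which passed the test, without sEVHYP replicate 1 and -0.03 without sEVHYP replicate 2, so that replicate 2 alone gave the difference. Against sEVCTRL the value was 0.23 (SE 0.27), and it was 0.61 (SE 0.27), past the threshold, without sEVHYP replicate 1 and -0.28 without sEVHYP replicate 2.

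Adm encodes adrenomedullin, a peptide that dilates vessels and stabilizes their barrier. It was at 6.55 and 7.07 CPM with sEVHYP, 3.50, 5.99 and 7.19 CPM with sEVNORM, and 4.65, 4.82 and 6.79 CPM with sEVCTRL. The sEVHYP pair was tight, but 1 gland of each other group reached its range. The log2 fold changes were 0.29 (SE 0.33) against sEVNORM and 0.33 (SE 0.33) against sEVCTRL. Angptl4, a secreted inhibitor of lipoprotein lipase that also responds to PPARs and glucocorticoids, was at 34.4 and 75.9 CPM with sEVHYP, 42.6, 57.5 and 98 CPM with sEVNORM, and 47.1, 65.4 and 83.1 CPM with sEVCTRL. Its lowest value of the 8 libraries was in sEVHYP replicate 1, and its log2 fold change against sEVNORM was -0.26 (SE 0.42), with a 95% interval of the fold from 0.431 to 1.61.

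Bnip3, a mitochondrial outer-membrane protein that recruits the mitophagy machinery, was the most abundant member. It was at 124 and 347 CPM with sEVHYP, 167, 260 and 312 CPM with sEVNORM, and 212, 313 and 325 CPM with sEVCTRL. The sEVHYP pair held both the lowest and the highest value of the 8 libraries, a ratio of 2.79 between replicates. The log2 fold change against sEVNORM was -0.06 (SE 0.42). It was -0.996 (SE 0.41) and passed the test when sEVHYP replicate 2 was left out, and was 0.50 (SE 0.37) and did not when replicate 1 was left out. Against sEVCTRL it was -0.27 (SE 0.42), and -1.203 (SE 0.41), past the threshold, without sEVHYP replicate 2.

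Ndrg1, a stress-responsive protein linked to differentiation, was at 53.7 and 69.3 CPM with sEVHYP, 64.5, 68.7 and 79.5 CPM with sEVNORM and 60.3, 76.7 and 90.2 CPM with sEVCTRL. Its log2 fold changes with sEVHYP were -0.21 (SE 0.21) against sEVNORM and -0.30 (SE 0.21) against sEVCTRL. Ankrd37, an ankyrin-repeat protein, was at 2.36 and 3.85 CPM with sEVHYP, within the range of 1.82 to 4.42 CPM over the controls (log2 fold change 0.08, SE 0.44, against sEVCTRL and 0.29, SE 0.44, against sEVNORM, neither called). Exons of Ankrd37 overlap those of Ufsp2 on the opposite strand, which had 9773 counts over the 8 libraries against 475 for Ankrd37. Whether the counting used strand is not given in the sources used here, so the Ankrd37 values are uncertain.

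The dioxygenases had the smallest ratios of highest to lowest library, 1.25 for Kdm3a and 1.44 for P4ha1, against 1.68 to 2.93 for the other members. P4ha1, the catalytic subunit of collagen prolyl 4-hydroxylase, was at 55.4 and 62.7 CPM with sEVHYP, 54.3, 55.1 and 63.3 CPM with sEVNORM and 47.6, 48.2 and 68.8 CPM with sEVCTRL. Its log2 fold change against sEVNORM was 0.04 (SE 0.20), and the 95% interval of the fold was 0.756 to 1.39. Kdm3a, a histone H3 lysine demethylase, was at 54.6 and 56.0 CPM with sEVHYP, 59.0, 59.8 and 67.9 CPM with sEVNORM and 54.2, 55.6 and 56.7 CPM with sEVCTRL. All sEVNORM glands were above all glands of the other groups, but the differences were small: sEVHYP was at 0.889 times the sEVNORM level (95% interval 0.715 to 1.11), and sEVNORM against sEVCTRL gave a log2 fold change of 0.17 (SE 0.12). Non-overlapping groups were found for 22.8% of all genes between sEVHYP and sEVNORM, where 2 of the 10 members did not overlap (Ddit4 higher and Kdm3a lower), and for 4.86% of all genes between sEVNORM and sEVCTRL, where Kdm3a was the 1 member without overlap.

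Car9, a membrane carbonic anhydrase that acidifies the space around hypoxic cells, was nearly silent. It had 11 to 25 counts per library, or 0.502 to 1.2 CPM, with log2 fold changes of 0.23 (SE 0.51) against sEVNORM and 0.47 (SE 0.52) against sEVCTRL. At this depth the 95% interval of the fold against sEVNORM ran from 0.523 to 2.62, so a doubling could not be told from no change. An antisense gene, Gm12454, overlaps its exons and had 46 counts over the 8 libraries against 150 for Car9.

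**Figure D2:**
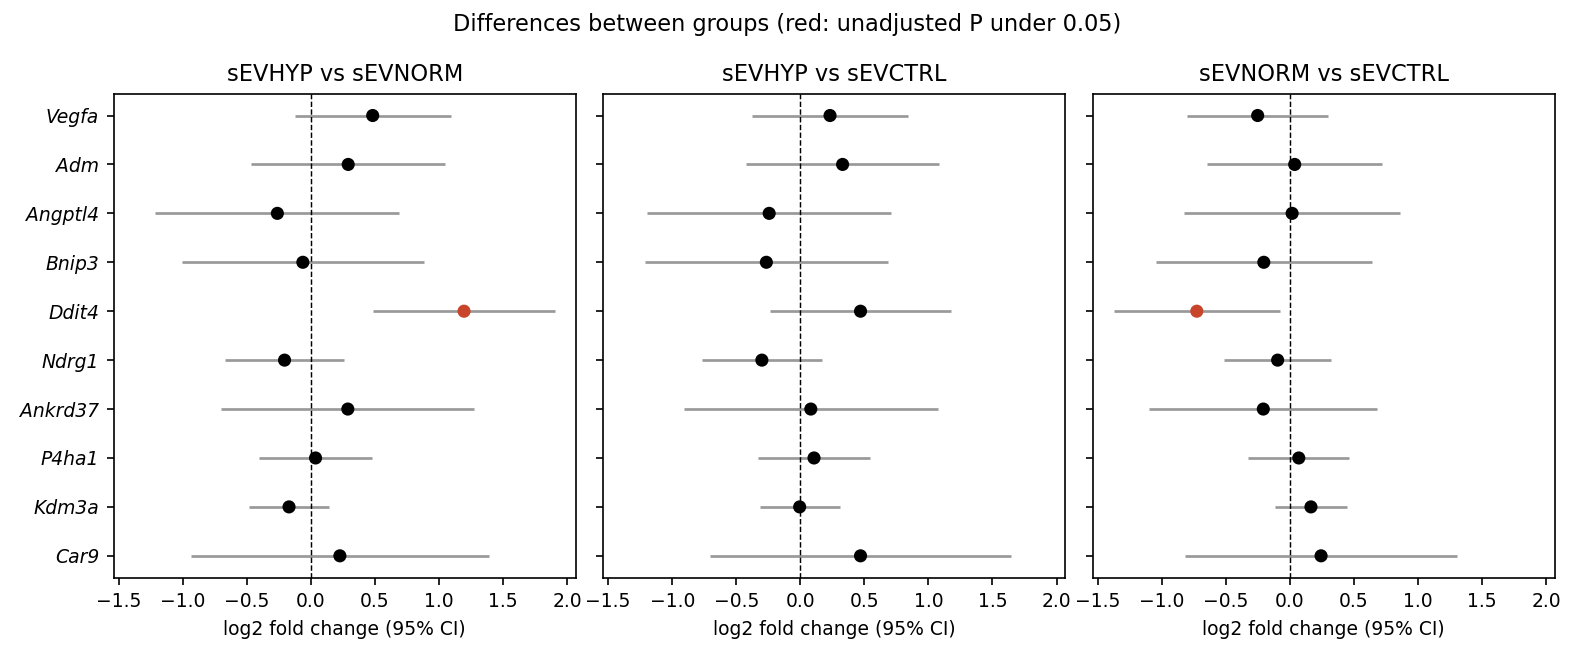
Log2 fold changes (horizontal axis) with 95% confidence intervals (grey lines) of the 10 genes in the 3 comparisons, from edgeR's model of all 8 libraries, with red points where the unadjusted P was under 0.05. Ddit4 is the gene in red, at 1.196 for sEVHYP against sEVNORM and at -0.73 for sEVNORM against sEVCTRL, and the intervals of the other 9 genes include 0.

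Over the 10 genes, 6 were higher and 4 lower with sEVHYP than with sEVNORM, with a median log2 fold change of 0.13, beside -0.02 for all genes tested, of which 47.0% were higher. Against sEVCTRL, 6 were higher and 4 lower, and the median was 0.09 (all genes -0.02, 47.5% higher). Of the 10, 0 were called, beside 2.45% of all genes (1.39% higher and 1.06% lower), and 0 had groups without overlap, beside 12.8% of all genes. Between sEVNORM and sEVCTRL, 5 were higher and 5 lower, and the median was -0.04 (all genes -0.001, 49.8% higher). In that comparison 1 was called, Ddit4, beside 1.62% of all genes (0.89% higher and 0.734% lower). The 3 comparisons share libraries, so they are not separate evidence.

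Levels per kilobase of exon placed Bnip3 first, at a mean of 114 CPM per kb over the 8 libraries, above 97.7% of genes tested. Angptl4 (17.8 CPM per kb), Vegfa (17.1), P4ha1 (13.8), Ndrg1 (10.7), Ddit4 (8.90) and Kdm3a (7.05) followed, and each of these neighbours overlapped the next over the libraries. Adm (3.60) was below Kdm3a in every library and overlapped Ankrd37 (1.84), while Car9 (0.389 CPM per kb) was below all other members in every library, above 13.4% of genes tested.

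Promoter sequence was compared for members at different places in that order: Bnip3 with the highest level, P4ha1 with a steady one, Adm with a low one, and Vegfa, whose main start has no core match in its window. Upstream stretches outside the annotated exons of each gene follow, 5′ to 3′ on the gene's strand, with ACGTG or GCGTG matches on either strand in capitals (RefSeq, GRCm38.p6). They lie at chr7:138909520-138909756 (minus strand) for Bnip3, chr10:59323046-59323295 (plus) for P4ha1, chr7:110627407-110627656 (plus) for Adm and chr17:46032378-46032627 (minus) for Vegfa.
Bnip3: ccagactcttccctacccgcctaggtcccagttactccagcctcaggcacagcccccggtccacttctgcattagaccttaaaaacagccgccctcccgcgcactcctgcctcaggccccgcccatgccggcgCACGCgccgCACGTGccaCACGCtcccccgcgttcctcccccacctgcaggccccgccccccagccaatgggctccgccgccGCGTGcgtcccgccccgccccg
P4ha1: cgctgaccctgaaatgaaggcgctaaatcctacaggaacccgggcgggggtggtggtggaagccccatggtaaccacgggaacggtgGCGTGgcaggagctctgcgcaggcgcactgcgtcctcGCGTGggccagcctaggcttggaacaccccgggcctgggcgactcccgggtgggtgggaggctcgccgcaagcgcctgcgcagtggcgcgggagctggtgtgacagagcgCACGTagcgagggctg
Adm: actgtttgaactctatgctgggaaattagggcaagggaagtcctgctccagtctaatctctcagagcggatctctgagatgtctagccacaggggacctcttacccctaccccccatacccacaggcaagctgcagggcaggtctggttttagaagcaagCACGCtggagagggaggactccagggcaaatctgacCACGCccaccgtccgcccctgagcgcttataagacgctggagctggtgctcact
Vegfa: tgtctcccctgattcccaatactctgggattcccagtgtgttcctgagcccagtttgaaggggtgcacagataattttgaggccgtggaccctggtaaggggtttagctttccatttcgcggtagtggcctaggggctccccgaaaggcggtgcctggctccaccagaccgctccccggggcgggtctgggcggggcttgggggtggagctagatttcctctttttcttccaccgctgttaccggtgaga
Bnip3 had 5 matches in its 250-base window, of which a pair shares the palindrome CACGTG, P4ha1 had 3 and Adm 2. Of all windows, 6.58% held 3 or more. The table of promoters covered 8 of the 10 members, without Ndrg1 and Angptl4. Ankrd37 had 4 matches and Car9 1, and of the 3 Kdm3a windows 1 held a match. A second, internal Vegfa start had 2. Ddit4, with 2 matches, had no more than Bnip3, P4ha1 or Ankrd37, which were not called.

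The 10 genes were next set beside 40 other HIF targets outside glycolysis and 19 glycolytic ones. Among the 40, 2 rose and 0 fell with sEVHYP relative to sEVNORM, which is 5% of the list against 3.95% of all genes tested called in either direction. Cxcr4, the receptor for the chemokine CXCL12, was at 84.8 and 156 CPM with sEVHYP and at 35.4, 54.8 and 74.3 CPM with sEVNORM (log2 fold change 1.14, SE 0.36, adjusted P = 1). Ndufa4l2, which lowers respiratory complex I activity in hypoxia, was at 2.70 and 3.59 CPM against 1.15, 1.47 and 1.81 CPM (1.09, SE 0.36, adjusted P = 1). Neither pair of groups overlapped, as was the case for 22.8% of all genes tested, in either direction. With sEVCTRL, Cxcr4 was at 55.3 to 98.7 CPM and Ndufa4l2 at 2.01 to 3.34 CPM. Between sEVHYP and sEVCTRL 0 of the 40 were called, beside 2.45% of all genes. Ndufa4l2 was lower with sEVNORM than with sEVCTRL (-0.90, SE 0.33), where 1.62% of all genes were called.

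The rest of the 40 were not called in any comparison. These included the vascular signals Edn1, Pdgfb, Angpt2, Flt1, Tek and Pgf and the collagen and matrix enzymes P4ha2, Plod1, Plod2, Lox and Loxl2. The close Bnip3 relative Bnip3l had a log2 fold change of 0.01 against sEVNORM. The median of the 40 was 0.04 against sEVNORM and 0.00 against sEVCTRL.

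Among the glycolytic targets, 8 of 19 rose with sEVHYP against sEVNORM and 0 fell (42.1% called, against 3.95% of all genes tested, 2.25% of them higher), with a median log2 fold change of 0.46 against -0.02 over all genes. The largest were the lactate exporter Slc16a3 (1.93, SE 0.69), Aldoa (1.17, SE 0.35), Gapdh (0.91, SE 0.24) and Hk2 (0.76, SE 0.19), the last 3 enzymes of glycolysis. Slc16a3 had low levels, at 1.69 and 3.64 CPM with sEVHYP, 0.331 to 1.21 CPM with sEVNORM and 0.457 to 1.78 CPM with sEVCTRL. Against sEVCTRL, 1 of 19 was called (Pkm, 0.39, SE 0.16), beside 2.45% of all genes. Between sEVNORM and sEVCTRL 2 of 19 were lower (Hk2, -0.49, SE 0.17, and Pgk1, -0.35, SE 0.13), beside 1.62% of all genes. The difference between the lists was not tested. The lists were chosen with earlier results of these data known, and the paper had reported raised glycolytic pathways in these glands. These shares therefore only describe the listed genes. All 12 skeletal muscle markers were also higher with sEVHYP than with sEVNORM, 11 of them without overlap (as were 22.8% of all genes, in either direction) and 0 at P under 0.05, and their part in the glycolytic values was not tested.

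**Figure D3:**
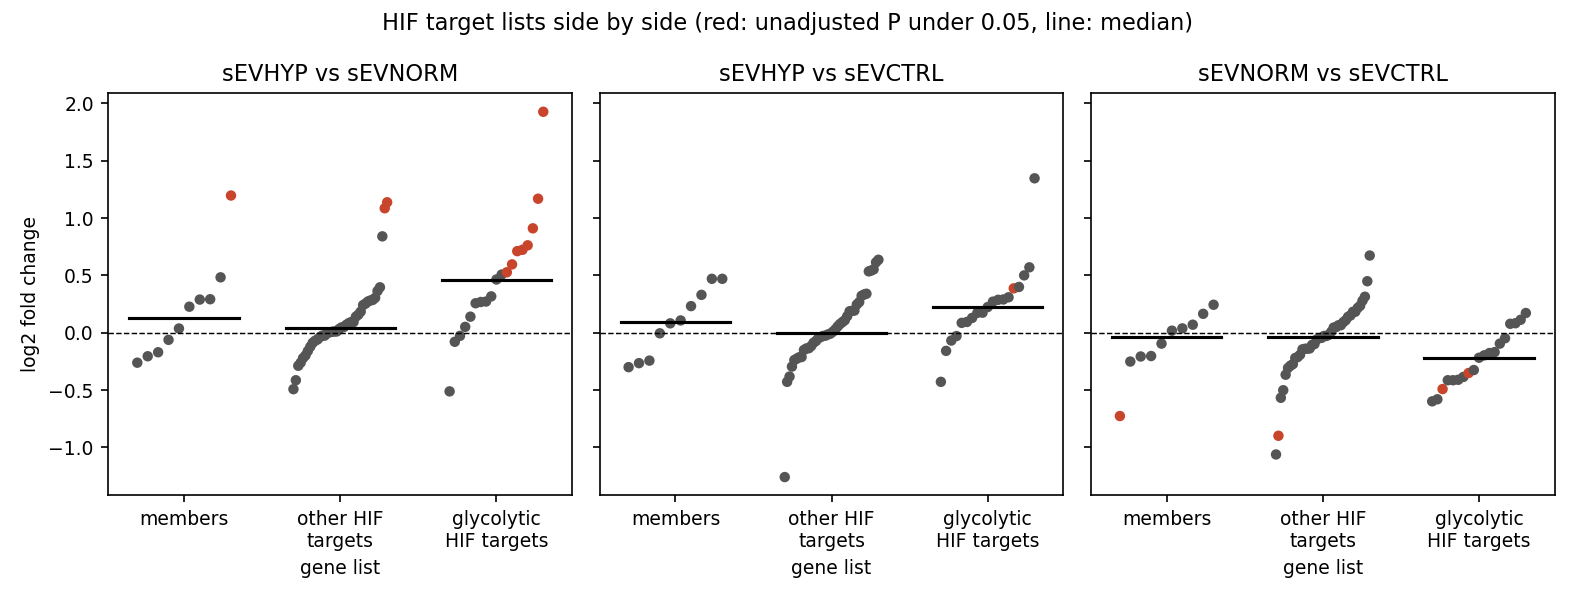
Log2 fold changes (vertical axis, common to the panels) of the 10 members, 40 other HIF targets outside glycolysis and 19 glycolytic HIF targets in the 3 comparisons, 1 point per gene in rising order, red where the unadjusted P was under 0.05, with a line at the median. Against sEVNORM the medians are 0.13, 0.04 and 0.46, with 1, 2 and 8 red points, all of them above 0.

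Of the HIF subunit genes, Hif3a was lower with sEVHYP. Hif3a encodes an alpha subunit whose short forms can inhibit the others, and it was at 2.75 and 2.89 CPM with sEVHYP, 3.41, 6.72 and 11.9 CPM with sEVNORM and 5.91, 6.40 and 7.93 CPM with sEVCTRL. The sEVHYP glands were below all others (log2 fold change -1.38, SE 0.47 against sEVNORM and -1.26, SE 0.47 against sEVCTRL, edgeR adjusted P = 1 in each). In these comparisons 3.95% and 2.45% of all genes were called, and 22.8% and 12.8% had groups without overlap, in either direction. Hif1a was at 403 and 453 CPM with sEVHYP, between 357 and 645 CPM with sEVNORM and between 252 and 428 CPM with sEVCTRL (log2 fold changes -0.11, SE 0.30, and 0.30, SE 0.30, for sEVHYP against each). Epas1, which encodes HIF2-alpha, had log2 fold changes of 0.04 and -0.18, and Arnt, the beta subunit, -0.07 and -0.07. HIF alpha activity is set mainly by protein stability, which RNA levels do not show.

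Genes whose products work with the members and relatives of the members were read together from a list of 40. Flt1, P4ha2, Bnip3l and Car12 are also among the 40 other HIF targets. With sEVHYP against sEVNORM, 2 rose and 1 fell, which is 7.5% of the list, beside 3.95% of all genes tested. Against sEVCTRL 0 were called with sEVHYP or sEVNORM, beside 2.45% and 1.62% of all genes. The VEGF receptors Flt1 (0.18) and Kdr (-0.03) and the co-receptors Nrp1 (-0.02) and Nrp2 (0.22) were not called against sEVNORM. Neither were the adrenomedullin receptor Calcrl (-0.15) and its partner Ramp2 (-0.16), nor Lpl, the lipase that Angptl4 inhibits (0.12), and its endothelial anchor Gpihbp1 (0.00). P4hb, the beta subunit that pairs with P4ha1, had a log2 fold change of 0.13.

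The genes called in that list were Ddit4l, Ndrg4 and Car2, each a relative of a member. Ddit4l, a relative of Ddit4 that also restrains mTORC1, was at 35.1 and 79.5 CPM with sEVHYP, 4.12, 11.1 and 16.4 CPM with sEVNORM and 4.06, 12.9 and 54.2 CPM with sEVCTRL. The sEVHYP glands were above all sEVNORM glands (log2 fold change 2.44, SE 0.91, adjusted P = 1) but overlapped the controls (1.27). Between sEVHYP and sEVNORM 22.8% of all genes had groups without overlap, in either direction. The highest values of Ddit4l were in sEVHYP replicate 2 and sEVCTRL replicate 2, the libraries with the most skeletal muscle marker RNA (16000 and 11200 CPM). The part of muscle in its difference was not tested. Ndrg4 rose by 0.84 (SE 0.29) and Car2, a cytosolic carbonic anhydrase, fell by 0.52 on the log2 scale (SE 0.23).

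Ddit4 and Angptl4 also respond to glucocorticoids, and Angptl4 to PPARs, so 11 glucocorticoid-response genes and 10 PPAR-response genes were read beside them. In the first list, 0 rose and 1 fell with sEVHYP against sEVNORM and against sEVCTRL (3.95% and 2.45% of all genes were called). The gene was Fkbp5, a chaperone strongly induced by glucocorticoids. Fkbp5 was at 26.7 and 32.5 CPM with sEVHYP, 45.5, 73.8 and 78.6 CPM with sEVNORM and 45.1, 47.3 and 54.3 CPM with sEVCTRL. Its values were -1.16 (SE 0.25) against sEVNORM, with adjusted P = 1 in the model of all 8 libraries, and -0.72 (SE 0.24) against sEVCTRL, both on the log2 scale. DESeq2 on only the groups compared gave Fkbp5 an adjusted P of 0.0202 against sEVNORM, and it did not pass 0.05 against sEVCTRL. Of the other 10, none of them called, 7 had log2 fold changes above 0 against sEVNORM and 3 below, with values of 0.71 (SE 0.44) for Dusp1, 0.49 (SE 0.27) for Tsc22d3, 0.48 (SE 0.29) for Sgk1 and -0.80 (SE 0.60) for Zbtb16, and the median of the 11 was 0.17. The part of glucocorticoids in the values of Ddit4 was not tested. In the second list, 0 rose and 2 fell with sEVHYP against sEVNORM and against sEVCTRL (3.95% and 2.45% of all genes were called), among them Cpt1a, which admits fatty acids to mitochondria (log2 fold changes of -0.65, SE 0.14, and -0.41, SE 0.14). The adjusted P of Cpt1a from DESeq2 on only the groups compared was 0.0202 against sEVNORM, and it did not pass 0.05 against sEVCTRL. Against sEVNORM 7 of the 10 had log2 fold changes above 0, none of them called, with 0.82 (SE 0.37) for Ucp3, 0.46 (SE 0.28) for Plin2 and 0.14 (SE 0.66) for Pdk4, and the median of the 10 was 0.12.

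The levels of the members were also compared with the make-up of the tissue across the 8 libraries. In 60 relations between members and 6 marker lists, Vegfa fell as lymphocyte markers rose, with a Pearson r of -0.94 (exact permutation P = 0.000422, adjusted P = 0.0253) and a Spearman rho of -0.98 (exact permutation P = 0.000397, adjusted P = 0.0238). The r was -0.84 without sEVHYP replicate 2 and sEVNORM replicate 2, the libraries farthest from the median, and -0.95 after group means were removed. Vegfa was highest in sEVHYP replicate 2, with the lowest lymphocyte marker level (483 CPM), and lowest in sEVNORM replicate 2, with the highest (1440 CPM). Each library's CPM values share 1 total, so the relation is one of shares of RNA.

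Ndrg1 rose with the endothelial markers by rank, with a Spearman rho of 0.95 (exact permutation P = 0.00114, adjusted P = 0.0342), while its Pearson r of 0.89 had an exact permutation P of 0.00432 and an adjusted P of 0.119 and was 0.69 without sEVCTRL replicate 3 and sEVHYP replicate 1. Bnip3 had an r of 0.85 with the endothelial markers (exact permutation P = 0.00593, adjusted P = 0.119, rho 0.83 with adjusted P = 0.168) and of 0.80 with the white adipocyte markers (exact permutation P = 0.0155, adjusted P = 0.173, rho 0.79 with adjusted P = 0.168), so neither passed the adjustment. Without the libraries farthest from the median of the markers these r were 0.92 and 0.84, and after group means were removed 0.88 and 0.84. Among the 45 pairs of members, none passed it either. By rank the closest pair was Vegfa with Bnip3, with a rho of 0.93 (exact permutation P = 0.00223, adjusted P = 0.100) and an r of 0.73 (exact permutation P = 0.0356, adjusted P = 0.364), which was 0.71 without the libraries farthest from the median and 0.96 after group means were removed. The highest r were 0.82 for Bnip3 with Ndrg1 (exact permutation P = 0.0111, adjusted P = 0.318, rho 0.76 with adjusted P = 0.390) and 0.81 for Angptl4 with Bnip3 (exact permutation P = 0.0141, adjusted P = 0.318, rho 0.69 with adjusted P = 0.390), and they were 0.67 and 0.88 without the libraries farthest from the median. sEVHYP replicate 1 had the lowest level of the 8 libraries for 3 members (Bnip3, Angptl4 and Ndrg1), and sEVHYP replicate 2 the highest for Bnip3 and Vegfa.

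**Figure D4:**
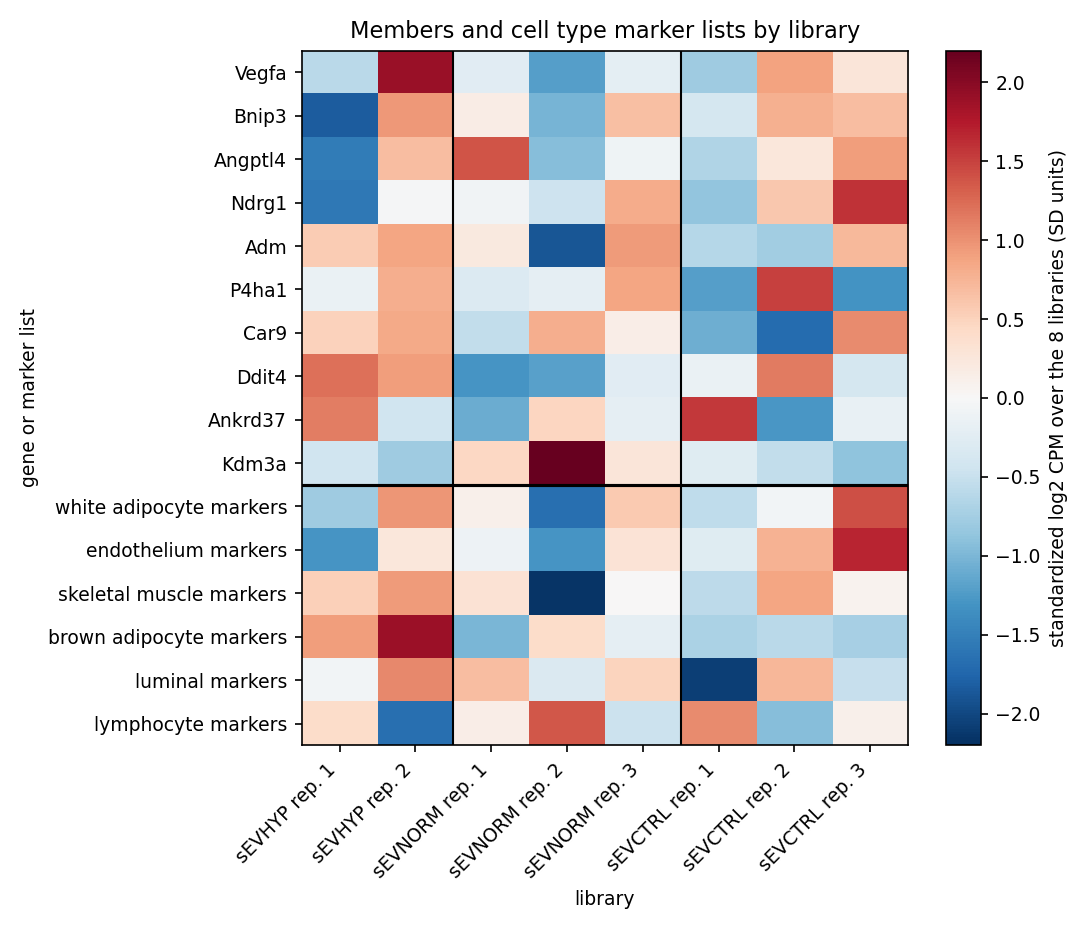
Standardized log2 CPM (color, in SD units over the 8 libraries) of the 10 genes (rows above the line) and of 6 cell type marker lists (rows below) in each library, with the groups separated by vertical lines. The sEVHYP replicates differ for Bnip3, Angptl4 and Vegfa, and the Vegfa row mirrors the row of lymphocyte markers (r = -0.94).

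The mean standardized level of the 10 genes was 0.57 SD units in sEVHYP replicate 2 and -0.27 in sEVHYP replicate 1, so the members did not separate the sEVHYP glands from the rest as a group. It ranged from -0.35 to 0.29 with sEVNORM and from -0.45 to 0.25 with sEVCTRL. Among 9814 genes of at least 10 CPM outside the HIF target lists, those most like this mean level over the 8 libraries were Cdkn1c (r = 0.981), Fitm2 (0.975), Glul (0.972), Cd1d1 (0.964) and Sik2 (0.963), given as a description.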

How the data were processed

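RNA from whole mammary glands was sequenced after poly(A) selection (8 libraries, each from 1 column of the deposited table, grouped by the treatment label). STAR (mm10) and RSEM 1.2.12 (Ensembl genes) were used by the authors to align reads and estimate counts. The deposited values are expected counts given as whole numbers, without normalization, and they were used as deposited. Symbols and positions came from GENCODE M21 for 51596 of 51789 genes, and genes without a symbol held 0.0389% of counts.

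Counts were analyzed with edgeR 4.0.16 in R 4.3.3 (filterByExpr at 10 counts, TMM scaling with factors between 0.975 and 1.02, and the quasi-likelihood F-test with 5 residual and 4.08 prior degrees of freedom, Benjamini-Hochberg over 17858 genes). The common biological coefficient of variation was 0.297. Log2 CPM used a prior count of 2. Total counts were 18194996 to 24622569 per library. No library pair was a duplicate, and nothing beyond the labels says how the replicate glands were kept, so P values measure the spread between these libraries. DESeq2 1.42.0, other scalings and filters, a replicate block, muscle and brown adipocyte marker covariates and each library left out were alternatives. Relations over libraries used exact permutation tests (two-sided). The procedure was tested on simulated data.

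The members and gene lists were chosen with earlier results of these data known. Named genes were the members, up to 4 called genes per list and comparison by the size of the log2 fold change, the HIF subunits, and partners that bind a member's product. Bnip3l, the vascular and matrix genes listed by name, and Dusp1, Tsc22d3, Sgk1, Zbtb16, Ucp3, Plin2 and Pdk4 were added after their values were seen. Some genes of the comparison lists are counted in the lists but not reported here by name.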

Additional observations from a re-analysis of the deposited data

How the results depend on the processing

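Of 270 single-gene values under other settings, 254 kept their direction and side of the threshold, as did 204 of 240 with a library left out. The number of members called against sEVNORM was 1 in every setting except 0 with the brown adipocyte covariate and 1 to 2 with a library left out, and 1 member, Ddit4, passed an adjusted P of 0.05 with DESeq2 on the 2 groups. Other HIF targets called against sEVNORM numbered 5 with the muscle covariate, 1 with the brown adipocyte covariate and 1 to 3 with a library left out. Against sEVCTRL, members called were 0 to 1 with a library left out, and other HIF targets called, 0 in the model reported, were 1 with DESeq2 on all libraries or on 2 groups, edgeR on 2 groups or the replicate block, 2 without a filter, 3 with the muscle covariate, 4 with the brown adipocyte covariate and 0 to 3 with a library left out. The members' median there was -0.12 with the brown adipocyte covariate. Between sEVNORM and sEVCTRL, the Ddit4 call was lost, leaving 0 members, with the replicate block, the muscle covariate (-0.55) or the brown adipocyte covariate (-0.75), and the count was 0 to 1 with a library left out. Other HIF targets called there were 2 with either DESeq2 fit, no filter or the replicate block, 4 with the muscle covariate, 3 with the brown adipocyte covariate and 0 to 2 with a library left out. The cause of these changes was not tested.

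Directions that reversed belonged to members that were not called. With the muscle covariate they were Adm (-0.044) and P4ha1 (-0.12) against sEVNORM, Kdm3a (0.036) for sEVHYP against sEVCTRL and Bnip3 (0.071) for sEVNORM against sEVCTRL. With the brown adipocyte covariate they were Angptl4 (0.27), P4ha1 (-0.16) and Car9 (-0.24) against sEVNORM, and Vegfa (-0.11), Angptl4 (0.35), Ankrd37 (-0.051), P4ha1 (-0.13) and Car9 (-0.13) against sEVCTRL. With a library left out, sEVHYP against sEVNORM ranged from -0.95 to 0.20 for Angptl4, -0.063 to 0.13 for P4ha1, -0.996 to 0.50 for Bnip3, -0.11 to 0.59 for Ankrd37 and -0.028 to 0.86 for Vegfa. Against sEVCTRL the ranges were -0.022 to 0.006 for Kdm3a, -0.31 to 0.49 for Ankrd37, -0.94 to 0.22 for Angptl4, -1.203 to 0.30 for Bnip3 and -0.28 to 0.61 for Vegfa. For sEVNORM against sEVCTRL they were -0.19 to 0.28 for Adm, -0.38 to 0.25 for Angptl4, -0.46 to 0.19 for Ankrd37, -0.037 to 0.27 for P4ha1, -0.26 to 0.049 for Ndrg1 and -0.41 to 0.012 for Bnip3. With 1 sEVHYP library left, its spread is assumed to be that of the other groups.

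The labels give the groups the same replicate numbers. Deviations of same-numbered libraries from their group means had correlations of -0.42 to 0.37, and those of differently numbered libraries -0.37 to 0.47. Deviations within a group cancel out by construction, so these correlations cannot decide whether the numbers mark pairs. With the replicate block, Ddit4 was at 1.23 (SE 0.37, still called) for sEVHYP against sEVNORM and at -0.71 (SE 0.32, no longer called) for sEVNORM against sEVCTRL, and no other member's call changed.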
